A study of Mus musculus with 8 samples.

Results

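Rbm45 encodes a protein that binds RNA through its recognition motifs, and its own transcript was examined here for the peaks that tagged RBM45 left on it. The members are all distinct intervals of the deposited WT CLIP peak lists whose midpoint lies in Rbm45 on the plus strand (mm10, chromosome 2, 76369984 to 76383768, GENCODE M21 gene ENSMUSG00000042369.8). There were 30 of them, 20 among the 387749 distinct peaks of replicate 1 and 10 among the 344700 of replicate 2. The list of peaks shared by the replicates held 3 Rbm45 pairs of 16399.

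The cells were mHippoE-2, a transformed mouse hippocampal neuron line of strain Crl:CFW(SW)-024, and every group carried a lentivirus for FLAG-HA-tagged mouse RBM45. The 8 libraries form 4 groups of 2: iCLIP with an HA antibody and size-matched input without antibody, each from WT and from Mettl3 KO cells. Mettl3 encodes the enzyme that places most m6A on mRNA. In iCLIP, UV light ties RNA to the proteins that touch it, and the RNA recovered with the tagged protein is sequenced. The study set out to map RBM45 sites with and without m6A, and the values below come from the peak lists of the WT CLIP replicates. The labels do not say whether the replicates came from separate cultures, nor whether the cells were 1 clone. Expression markers of the line were not assessed, since peak lists do not measure expression. No read depth stands beside the peak lists, so the depth behind each peak is unknown.

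RNA-binding proteins of this kind often bind their own transcript, and such binding can change its splicing, stability or export. RBM45 is a mainly nuclear protein that was found in the inclusions of amyotrophic lateral sclerosis and frontotemporal dementia, and its recognition motifs are known to bind RNA that holds the triplet GAC. The pulled-down protein was made from a transgene, and the labels do not say whether that transgene carried introns or untranslated sequence. Reads from coding sequence and 3' UTR of the lentiviral and of the endogenous transcript therefore cannot be told apart.

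Rbm45 has a single transcript in GENCODE M21, of 10 exons and 1898 nt, with a coding sequence of 1428 nt. Its stop codon (76380555 to 76380557) lies in exon 9, with 8 nt of 3' UTR before the exon ends at 76380565. The other 314 nt of 3' UTR form exon 10 (76383455 to 76383768), behind intron 9 of 2889 nt. An exon junction after the stop codon was present in 4.48% of 21683 protein-coding genes, judged on the longest spliced basic transcript of each.

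The sequences below, read from the GENCODE M21 transcript (mm10, plus strand, DNA letters, 5' to 3'), show the stretches that the peaks turn on. The first 2 lie in the 3' UTR peak, with each GAC in capitals (chr2:76383482-76383511 and chr2:76383520-76383549). The next shows the stop codon in capitals and the junction of exon 9 (from 76380546) with exon 10 (to 76383464). It is followed by the last poly(A) signal, AATAAA, in capitals, near which the peak ended in both replicates (chr2:76383731-76383760). The last 2 are coding, a stretch of exon 9 covered in both replicates (chr2:76380433-76380458) and the exon 2 peak of replicate 2 (chr2:76372090-76372119), with no letter marked.
3' UTR, most GAC in 30 nt: tcagctGACtGACtgaaaacctGACtgGAC
3' UTR, last GAC before the T run: gtgGACagttGACagctttttttttttttt
Stop codon and junction: agaacttacTGAgccttaagaacaaagact
Last poly(A) signal: atgtatggcagaAATAAAgttcgctttgca
Exon 9 coding overlap: atagaaagagcgccaatgaggccatc
Exon 2 coding peak: aactcacgagaatctttgttatgataccaa

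A single wide peak over exon 10 stood far above every other Rbm45 peak in both replicates. In replicate 1 it ran from 76383373 to 76383752 (380 bp) with a fold of 44.8 and a −log10 p of 157.5. In replicate 2 it ran from 76383419 to 76383752 (334 bp) with a fold of 50.1 and a −log10 p of 176.03. Fold is the pileup over background that the authors' peak caller gave, and p is not adjusted. The next strongest Rbm45 peak had a fold of 7.90 in replicate 1 and 6.57 in replicate 2, so that the strongest was 5.67 and 7.62 times the next. Among genes with at least 5 peaks, this ratio was as high in 0.177% of 10760 genes in replicate 1 and 0.0859% of 10473 in replicate 2, with medians of 1.16 and 1.12. These and the later gene comparisons are descriptions of the lists, with no test.

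Both edges of this peak can be set against the gene model. It covered 298 of the 314 nt of exon 10 in each replicate and reached back into intron 9, by 82 nt in replicate 1 and 36 nt in replicate 2. The 5' edges thus differed by 46 nt between replicates, whereas the 3' edges were at the same base, 4 nt after the last poly(A) signal and 16 nt before the annotated end of the gene. Of 967 shared peaks with their midpoint in a 3' UTR, 19 (1.96%) held intronic bases of their transcript, that of Rbm45 among them. Within 5 kb downstream of the gene there were 0 peaks on the plus strand in either replicate, and 0 within 5 kb upstream. Peaks outside genes were rare in the deposited lists, which had 99.3% and 99.1% of distinct peaks with their midpoint in a gene on their own strand. On the minus strand 0 peaks lay inside Rbm45.

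**Figure D1:**
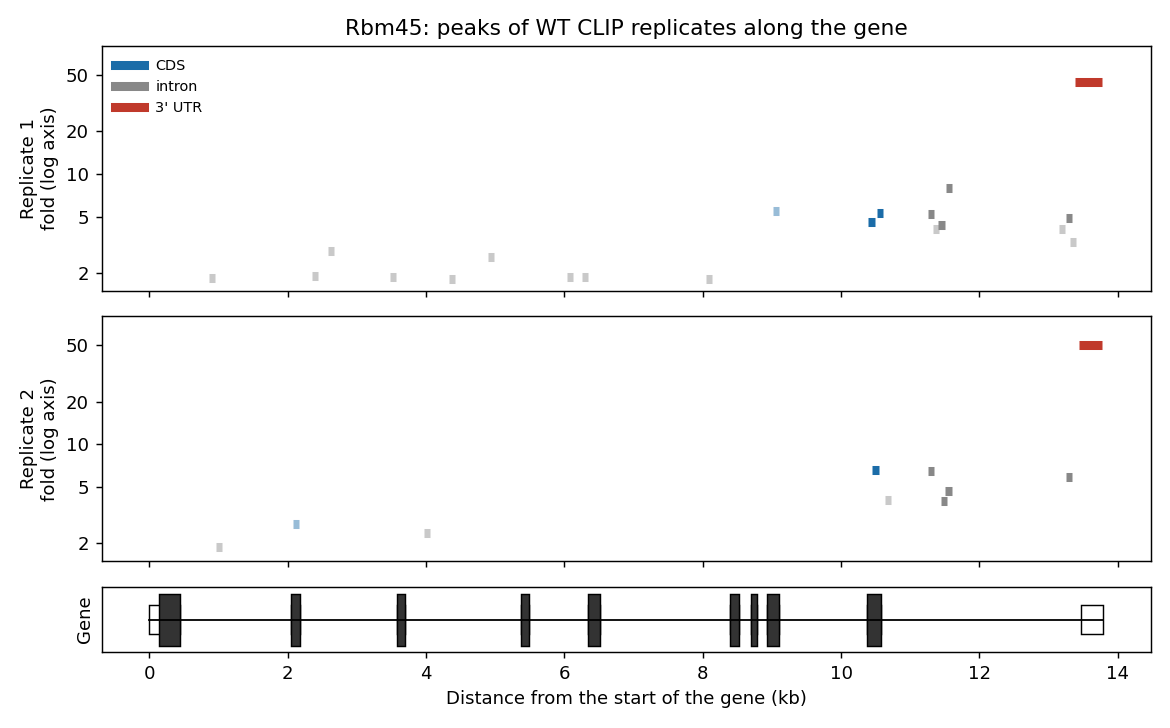
Fold over background (log axis) of each Rbm45 peak in WT CLIP replicate 1 (20 peaks) and replicate 2 (10 peaks) against distance from the start of the gene in kb, above the gene model (filled boxes, coding; open boxes, untranslated). Dark marks overlap a peak of the other replicate by at least 1 bp, pale marks do not, and short peaks are drawn wider than they are. The 3' UTR peak stands at 44.8 and 50.1, and all dark marks lie from exon 9 on.

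This was the strongest shared 3' UTR peak of the data by the lower of the 2 replicates' folds, and also in each replicate alone. Among 967 shared 3' UTR peaks the median lower fold was 2.38, and 1.14% had a fold of 10 or more in both replicates. Over all 16399 shared peaks that percentage was 1.39%, and the Rbm45 peak ranked 9 by lower fold. By the lower −log10 p it ranked 6. By the fold of replicate 2 alone it ranked 8 among these shared peaks, and by that of replicate 1 alone 32. In the latter rank, a replicate 1 peak that met several replicate 2 peaks was counted once per pair. Among all distinct peaks of each replicate's own list, the Rbm45 peak ranked 21 of 387749 by fold in replicate 1 and 8 of 344700 in replicate 2. It was also wide, rank 3 among the shared 3' UTR peaks, whose median width was 30 bp.

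The 3 genes whose strongest shared 3' UTR peak came closest to that of Rbm45, by the difference in log2 of the lower fold over the 2 replicates, remained more than 1 log2 unit below it. Hypk, which encodes a partner of an N-terminal acetyltransferase, had folds of 19.4 in replicate 1 and 17.1 in replicate 2 (chromosome 2, 121458237 to 121458390), a log2 difference of 1.39. Hsd17b11, a steroid dehydrogenase gene, had 15.5 and 17.8 (chromosome 5, 103990024 to 103990243), a log2 difference of 1.53. Ankra2, an ankyrin repeat gene, had 36.1 and 15.01 (chromosome 13, 98273315 to 98273403), a log2 difference of 1.58. All other 3' UTRs of the 817 genes with such a peak ranked below these in the lower fold.

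**Figure D2:**
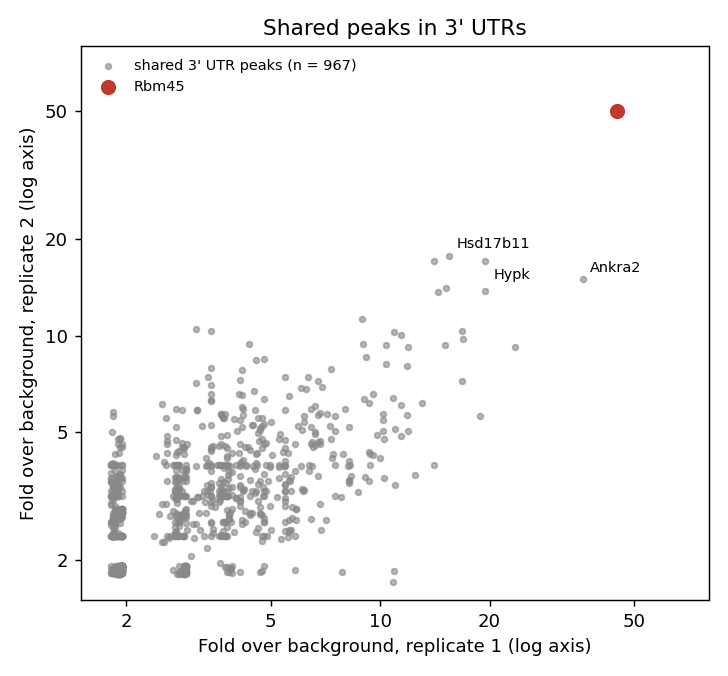
Fold over background in replicate 1 (x) and replicate 2 (y), both on log axes, of the 967 shared peaks with their midpoint in a 3' UTR, with Rbm45 in red. Rbm45 stands at 44.8 and 50.1, above Hypk, Hsd17b11 and Ankra2 in each replicate.

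Exon 10 opened with a cluster of GAC triplets followed by a run of 30 U. Within its first 100 nt lay 8 GAC, between positions 7 and 78 of the exon, and the U run filled the next stretch from position 82 (76383536 to 76383565). The remaining 214 nt of the exon held 2 more GAC, at positions 165 and 182. The triplet GAC, runs of 5 U (TTTTT in the DNA letters), the poly(A) signal AATAAA and the m6A consensus DRACH were searched on the transcript strand only, and overlapping sites were each counted. All 10 GAC of the exon lay inside the peak of each replicate, 3.36 per 100 nt, against 1.26 per 100 nt in the coding sequence of Rbm45 and 0.690 in its 5' UTR.

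Against other 3' UTRs the cluster was uncommon. Of 295517 windows of 100 nt from the 3' UTRs of 19722 genes, 64.7% held a GAC, the mean was 1.07, and 0.0152% held 8 or more. The start of this window was chosen after the sequence had been seen. With the best window of every 3' UTR in place of a fixed one, 109 of the 19722 (0.553%) reached 8, and the median was 3. A U run of 30 or more was present in 49 of these 3' UTRs (0.248%).

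Against other wide 3' UTR peaks the density of GAC was not unusual. Of 38 shared 3' UTR peaks with at least 100 exonic nt, 18 had as many GAC per 100 nt as the Rbm45 peak, itself included, and their median was 2.93. By number, 10 GAC or more were found in 3 of the 967 peaks, which are mostly short. At least 1 GAC was present in 36.6% of the 967.

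The m6A consensus DRACH (D stands for A, G or U, R for A or G, H for A, C or U) matched 13 places in the exonic part of the peak, and 9 of these hold a GAC, so that the counts are not independent. Windows of the same 298 nt from all 3' UTRs held DRACH in 99.6% of cases, with a mean of 5.99, and 1.21% of them held 13 or more. For GAC the same windows gave 94.8%, a mean of 3.25, and 0.539% with 10 or more. TTTTT was present in 48.8% of them, and 0.131% reached the 27 overlapping sites of the Rbm45 peak. AATAAA was present in 18.4% of them, and 3.33% held 2 or more, as in Rbm45. A match is a property of the sequence, and no m6A was measured in these files.

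**Figure D3:**
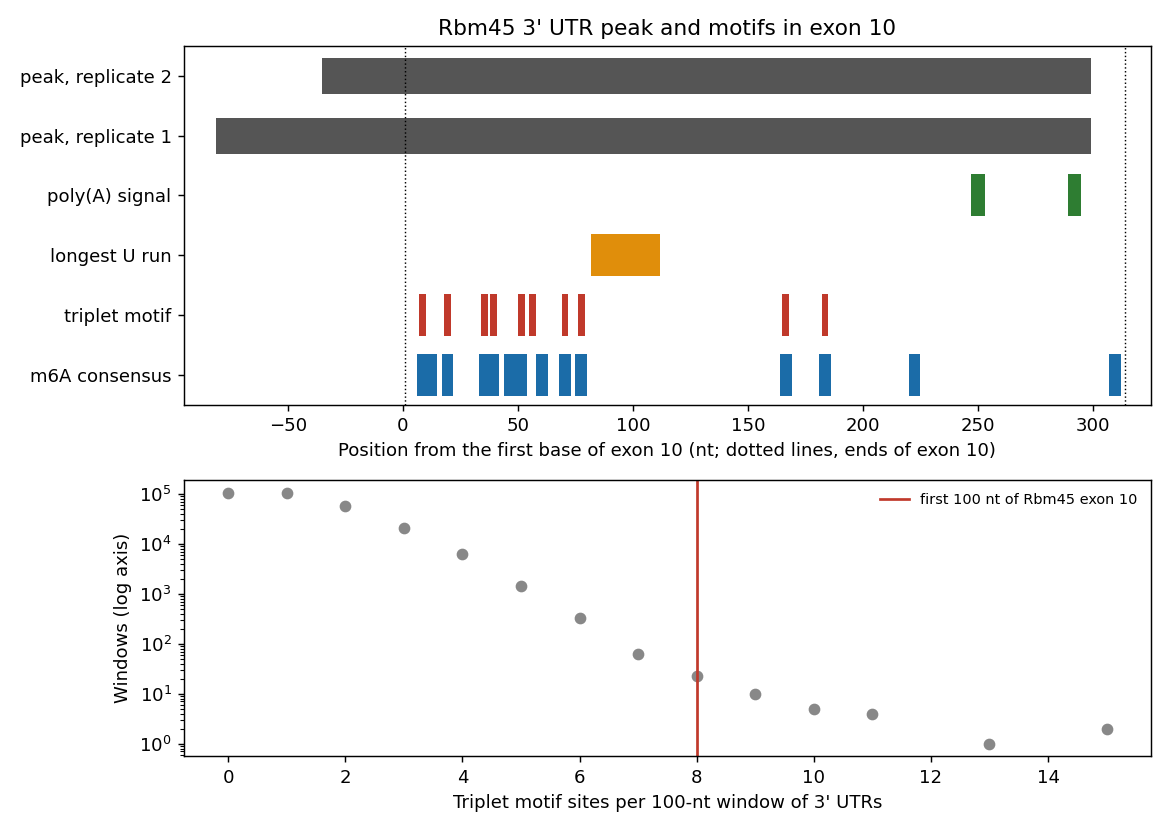
Top, position in nt from the start of exon 10 of the Rbm45 3' UTR peak in each replicate and of motif matches (triplet motif, GAC; m6A consensus, DRACH; poly(A) signal, AATAAA; longest U run, 30 nt), with dotted lines at the ends of the exon. Bottom, number of 100-nt 3' UTR windows (log axis) by their number of GAC, with a red line at the 8 of the first 100 nt of Rbm45 exon 10. The triplets crowd ahead of the U run, and both peaks span all of them.

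Intron 9, which separates the stop codon from exon 10, held most of the remaining stronger peaks. In replicate 1 it held 7 peaks with folds from 3.31 to 7.90, and in replicate 2 it held 5 with folds from 3.97 to 6.44. They formed an upstream group and a group next to exon 10, with 1576 nt free of peaks between them. The strongest of the upstream group ran from 76381499 to 76381584 in replicate 1, with a fold of 7.90. Replicate 2 covered 41 bp of it with a peak of fold 4.72 (76381518 to 76381558). A further site of this group was covered from 76381273 to 76381304 in both, with folds of 5.21 and 6.44. Another, from 76381447 to 76381459, had folds of 4.34 and 3.97 and only 13 bp in common. The other peaks of this part of the intron had no counterpart, in replicate 1 from 76381346 to 76381375 (fold 4.10) and in replicate 2 from 76380651 to 76380680 (fold 4.03).

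Next to exon 10, a peak from 76383255 to 76383294 in replicate 1 (fold 4.91) lay wholly inside one from 76383238 to 76383312 in replicate 2 (fold 5.93). Replicate 1 had 2 more peaks beside it, with folds of 4.10 and 3.31, which replicate 2 did not match. By lower fold, the shared intronic peaks of Rbm45 were among the top 6.50% and 5.66% of 14338 shared intronic peaks, whose median was 1.92. Intronic sequence is absent from a spliced coding sequence, but the labels do not state that the transgene was spliced. Intron sequence was not read here.

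**Figure D4:**
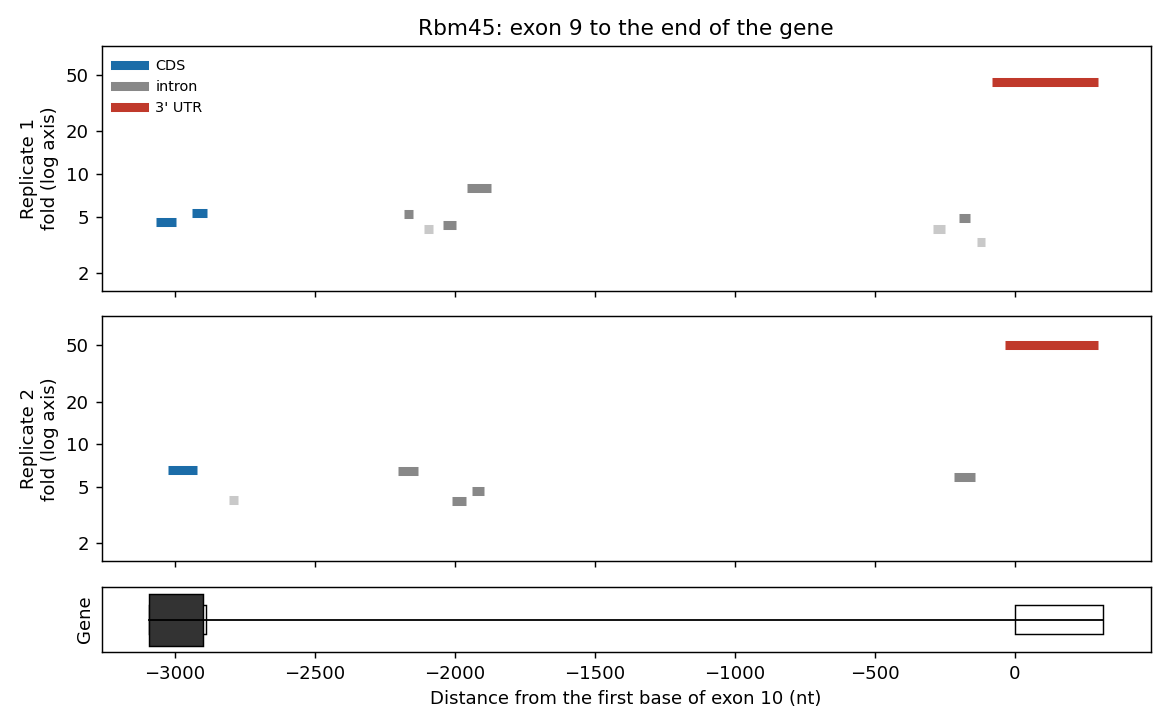
Fold over background (log axis) of the peaks from exon 9 to the end of Rbm45 in WT CLIP replicates 1 and 2, drawn to scale against distance in nt from the first base of exon 10, above the gene model. Both replicates have peaks in exon 9, in both groups of intron 9 and in exon 10, with folds from 3.31 to 7.90 outside the 3' UTR peak. Outside that peak, overlaps between replicates span 13 to 41 bp. Pale marks overlap no peak of the other replicate.

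Introns 1 to 8 held weaker peaks than intron 9. They are 8998 nt long together and held 9 peaks in replicate 1, with folds from 1.81 to 2.84, and 2 in replicate 2, with folds of 1.87 and 2.38. All 11 were of the least width, 30 bp, and none overlapped a peak of the other replicate. Neither trait is particular to them. The median width of all shared peaks was also 30 bp, and only 6.94% of all replicate 1 peaks and 7.85% of all replicate 2 peaks were overlapped. The folds of peaks in intron 9 and in introns 1 to 8 did not overlap in either replicate, the lowest of intron 9 being 3.31 and 3.97. This split was chosen after the peaks had been seen. How often the last intron of other genes stands apart in this way was not computed. Peak density was 2.42 per kb in intron 9 against 1.0002 per kb in introns 1 to 8 in replicate 1, and 1.73 against 0.222 in replicate 2.

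Coding peaks lay mainly in the last coding exons. Replicate 1 had 3, in exon 8 (76379012 to 76379074, fold 5.47) and exon 9 (76380387 to 76380458, fold 4.54, and 76380518 to 76380568, fold 5.27). Replicate 2 had 2, in exon 9 (76380433 to 76380535, fold 6.57) and exon 2 (76372090 to 76372119, fold 2.72). The exon 9 peak of replicate 2 met both exon 9 peaks of replicate 1, over 26 and 18 bp, 42.7% of its width together. It is absent from the shared list, in which each replicate 2 peak is covered by a replicate 1 peak over at least 50% of its width. The exon 8 and exon 2 peaks had no counterpart.

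The last coding peak of replicate 1 spanned the stop codon and ended 3 nt inside intron 9. The 5 coding peaks held 2 GAC in all, and the exon 9 peaks of replicate 1 held 0. The exonic parts of these peaks were 30 to 103 nt long, and the whole coding sequence held 1.26 GAC per 100 nt. Counts this small cannot show a difference from it. In the 5' UTR there were 0 peaks in either replicate.

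Agreement between the replicates was concentrated at the 3' end of the gene. Of the 10 replicate 2 peaks, 6 were overlapped by at least 1 bp (60%, 95% exact binomial interval 26.2 to 87.8), against 7.85% of all replicate 2 peaks. All 6 were among the 7 from exon 9 to the gene end, and 0 of the 3 upstream were overlapped. From the side of replicate 1, 7 of 20 peaks were overlapped (35%, 15.4 to 59.2), against 6.94% of all, and again all 7 were among the 10 from exon 9 on. Stronger peaks were shared more often in the lists as a whole, so the same share was taken among replicate 2 peaks with a −log10 p from 5 to below 10. Of the 6 such peaks in Rbm45, 5 were overlapped, against 22.5% of 15351. The band does not match strength within it. The Rbm45 peaks had a −log10 p of 9.98, 9.64, 8.33, 6.35, 5.25 and 5.10, some of them near its upper end. With a −log10 p of 5 or more in both replicates, 6 of 7 were (85.7%, 42.1 to 99.6), against 15.2% of 16537. Requiring 50% of the replicate 2 peak left 3 (30%, background 4.76%), and 50% of each peak left 2 (20%, background 3.95%). These intervals cover counting error only, and peaks of 1 gene share a transcript. Width was not matched in these shares. The 6 replicate 2 peaks overlapped by at least 1 bp were 41 to 334 bp wide, and the others 30 bp.

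The stretch from exon 9 to the gene end is 24.7% of the gene and held 10 of 20 peaks in replicate 1 and 7 of 10 in replicate 2. In 2741 protein-coding genes of 10 to 20 kb with peaks in both replicates, the last 24.7% of the span held 25.9% and 26.4% of peaks. The cut at exon 9 was chosen after the positions of the Rbm45 peaks had been seen, and the other genes were cut at the same share of their span. A share as high as in Rbm45 was found in 11.8% of 1817 genes with at least 5 peaks in replicate 1, and in 2.18% of 1699 in replicate 2. The replicates differed in the upstream part, with 10 and 3 peaks, more than in the downstream part, with 10 and 7. In number of peaks, Rbm45 was high among these genes in replicate 1 (20 against a median of 7, reached by 6.06%) and less so in replicate 2 (10 against 6, reached by 31.7%). A −log10 p of 5 or more was reached by 10 of the 20 peaks in replicate 1, against 8.66% of that list, and by 7 of the 10 in replicate 2, against 4.8%. Expression was not matched in these comparisons.

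Shared 3' UTR peaks were also looked up in 2 lists of other RNA-binding protein genes. As the Rbm45 peak was the strongest of all such peaks, none in these lists could reach it. Among 30 genes known to act on their own transcripts, 25 had peaks in both replicates. Of these, 10 held a shared peak, against 37.6% of all 15978 genes with peaks in both, and 4 held one in a 3' UTR, against 5.11%. Their median lower fold was 3.29, against 2.37 in the 817 genes with such a peak, and 0 of the 4 reached 10. Of all 967 shared 3' UTR peaks, 1.14% reached 10 in both replicates. Taf15, which encodes an RNA-binding protein, had folds of 4.19 in replicate 1 and 5.93 in replicate 2 (chromosome 11, 83506654 to 83506741). Among 38 other RNA-binding motif genes, 36 had peaks in both replicates, 13 held a shared peak and 2 held one in a 3' UTR, both close to those shares of all genes. The 2 were the splicing regulator gene Rbm5, a member of both lists, with 3.69 and 2.38 (chromosome 9, 107740519 to 107740548), and Rbms3 with 1.87 and 2.78 (chromosome 9, 116574553 to 116574590).

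The 3 shared Rbm45 peaks are also rows of the deposited count table, but its library columns could not be tied to samples, so enrichment over input and the effect of Mettl3 loss on these peaks were not analysed here.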

How the data were processed

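RNA of 8 libraries was measured by iCLIP and size-matched input. Per the submitters' processing notes, MACS2 2.1.1.20160309, Novoalign 3.09.00 and bedtools 2.25.0 were among the tools, with mm10. How strand was set and which control the peak caller had are not given in the sources. Peaks were called per library at a p of 0.005, per the names in the deposited files. Each deposited peak has the authors' score, a fold ratio over background and a −log10 p. The deposited count table (featureCounts 1.6.3, per the file headers) has 8 library columns, and its summary 8, whose names match no sample, and none was used. The planned edgeR contrasts and their alternatives were therefore not run. Its 3 Rbm45 regions are 1 base longer than the peaks.

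Repeated lines were removed (267229 and 237090, 0 of them in Rbm45). Peaks were placed by midpoint on GENCODE M21 basic transcripts, the stop codon counting as coding. Values of shared peaks were read from the replicate lists. Genes named besides Rbm45 were the 3 with the closest strongest shared 3' UTR peak, and up to 3 per list with the highest lower fold, of which 1 is not reported here. Members and lists were chosen with earlier results of these data known. The work used bedtools 2.31.1, pandas 2.3.3, numpy 2.4.6 and scipy 1.17.1 under Python 3.11.15, with figures by matplotlib 3.10.9, and region, overlap and motif steps were tested on simulated data.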

Additional observations from a re-analysis of the deposited data

How the results depend on the processing

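Of 30 recomputed values, 25 stayed within 1.5 times the reported count or rank, or within the interval of the reported share. With only peaks of a −log10 p of 5 or more, replicate 1 kept 10 of 20 Rbm45 peaks, with 6 of 16 in introns, and replicate 2 kept 1 of 2 coding peaks. Of the peaks so kept, 9 of 10 and 7 of 7 lay from exon 9 on, a cut chosen after the peaks had been seen. The same share among such stronger peaks of other genes was not computed. With both peaks required to be covered over 50% of their width, the share of replicate 2 peaks overlapped was 20% in place of 60%. The rank of the 3' UTR peak among shared peaks was 8 by the fold of replicate 2 only and 32 by that of replicate 1 only. These alternatives were added after the data were seen and kept the shared list, which needs both replicates. The 32 counts a replicate 1 peak once per pair, and among all 387749 distinct replicate 1 peaks the rank was 21. Counting repeated lines, any overlap with the gene, the comprehensive gene set or any exonic base changed no count. No paired analysis was possible because the peak lists cover 1 group and the count columns could not be tied to samples. The unknown depth limits every statement on a peak found in 1 replicate.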
